A study of Mus musculus with 3 samples.

Results

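The nuclear genes of the mitochondrial respiratory chain were mostly slightly lower in induced astrocytes (iAs) than in mouse embryonic fibroblasts (MEFs) or primary astrocytes (pAs), with median log2 differences of -0.13 and -0.23. Most of them lay within 1.5-fold in every comparison. In iAs against MEFs, 10.0% were lower by 1.5-fold or more, the share of all genes, and none was higher, against 8.84% of all genes. In iAs against pAs, 18.8% were lower and 2.5% higher, against 11.1% and 8.67% of all genes. Of genes at or above the median on an array, 16.4% were lower in iAs against pAs. The widest differences belonged to complex IV isoforms, among them Cox7a1, the heart and muscle form of subunit 7a, 6.69-fold above MEFs in pAs. Genes were taken as members by symbol (Nduf genes of the A, B, C, S and V series, the Sdh genes, Uqcr genes, Cox genes of subunits 4 to 8 and Atp5 genes), each from the probe sets that carry its symbol alone. This gave 80 of 22180 named genes, read from 89 probe sets: 31 of complex I, 4 of complex II, 8 of complex III, 19 of complex IV and 18 of complex V. Of the 80, 69 are structural subunits found in most tissues, and 11 are tissue-restricted isoforms, relatives or pseudogenes that the symbols also take in. Ndufa4 and its relative Ndufa4l2 were placed with complex IV, where the NDUFA4 protein is known to reside.

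The respiratory chain sits in the inner mitochondrial membrane. Complex I takes electrons from NADH and complex II from succinate, complex III passes them to cytochrome c and complex IV to oxygen, and complex V, the ATP synthase, uses the proton gradient that complexes I, III and IV build up. Complex II is made of nuclear gene products alone, whereas the other complexes also hold subunits encoded by mitochondrial DNA. Astrocytes are known for high glycolysis beside their respiration, and several complex IV subunits exist as paralogs that differ by tissue, such as the heart and skeletal muscle forms Cox6a2, Cox7a1 and Cox8b.

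The study compared cells reprogrammed from MEFs by small molecules with MEFs and with astrocytes from brain, each on 1 Affymetrix Mouse Gene 2.0 ST array. The iAs came from MEFs of GFAP-GFP transgenic reporter mice, which carry GFP under the promoter of the astrocyte gene Gfap, were treated for 25 days with the VCSTO mixture (OAC1, tranylcypromine, CHIR99021, SB-431542 and valproic acid), and were sorted for GFP. The MEFs came from E13.5 embryos of mice with the same reporter and were not treated, and the pAs came from the cortex of mice at postnatal day 2 and were cultured in serum without the compounds. The sample labels repeat the compound treatment for every sample, and the assignment here follows the study's methods, which treat the iAs only. Since iAs were sorted on the reporter, their Gfap level is no independent sign of cell type.

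There is 1 array per cell type, so no difference below has a replicate, an error or a test. Levels are log2 RMA values, a difference of 1 being 2-fold, and a gene is called higher or lower from 1.5-fold upwards, the threshold of the study's methods, while above and below stand for a difference of any size. Where levels follow without names, the order is iAs, pAs, MEFs. Array medians were 6.53 to 6.59, the top of the scale was 14.37, and a level below the median of its array is called dim. In such bulk values, fewer cells of a type and less RNA per cell cannot be told apart. Against MEFs, 9 of 10 astrocyte markers were higher in pAs and none lower, whereas in iAs 3 were higher and 5 lower, with Slc1a3 and Aqp4, a glutamate transporter and a water channel, dim at 5.88 and 5.82. Of 10 fibroblast markers, 8 were lower and 1, Thy1, higher in iAs, and 9 were lower and none higher in pAs. Compared directly, 7 of the 10 were higher in iAs than in pAs and 2 lower. Of 7 neuron markers, 5 were higher and none lower in iAs, and 2 were higher and 1, Tubb3, lower in pAs. Of 6 oligodendrocyte lineage markers, Sox10 and Cspg4 were higher in iAs and none lower, whereas in pAs Olig1 and Olig2 were higher and Sox10 and Cspg4 lower. The part of other cell types in the values below was not tested.

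Promoters are shown for 5 members on which the account turns: the pair that stood apart in pAs (Cox7a1, Cox6b2), 2 members lower in iAs than in MEFs (Ndufa1, Sdhd), and Cox6a1, which holds matches to the sites known from respiratory genes. Each run is the 250 bases before the gene's start in RefSeq (GRCm38.p6), 5′ to 3′ on the gene's strand. Capitals mark matches, on either strand, to a core of the NRF1 site (GCGCATGC), of the ETS site bound by NRF2/GABP (CCGGAAG), of the estrogen-related receptor site (AAGGTCA) or of the GC box (GGGCGG). Cox7a1 lies at chr7:30183921-30184170 on the plus strand, and Cox6b2 at chr7:4753095-4753344, Ndufa1 at chrX:37191239-37191488, Sdhd at chr9:50603850-50604099 and Cox6a1 at chr5:115348959-115349208 all on the minus strand.
Cox7a1: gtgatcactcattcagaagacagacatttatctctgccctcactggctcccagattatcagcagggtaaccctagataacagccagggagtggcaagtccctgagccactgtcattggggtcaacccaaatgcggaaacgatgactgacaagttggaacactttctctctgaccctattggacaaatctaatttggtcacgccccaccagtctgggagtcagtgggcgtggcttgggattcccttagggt
Cox6b2: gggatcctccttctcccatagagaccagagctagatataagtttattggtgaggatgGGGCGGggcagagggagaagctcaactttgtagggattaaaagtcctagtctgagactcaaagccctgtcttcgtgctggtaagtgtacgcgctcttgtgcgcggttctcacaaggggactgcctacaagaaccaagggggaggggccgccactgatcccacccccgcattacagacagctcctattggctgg
Ndufa1: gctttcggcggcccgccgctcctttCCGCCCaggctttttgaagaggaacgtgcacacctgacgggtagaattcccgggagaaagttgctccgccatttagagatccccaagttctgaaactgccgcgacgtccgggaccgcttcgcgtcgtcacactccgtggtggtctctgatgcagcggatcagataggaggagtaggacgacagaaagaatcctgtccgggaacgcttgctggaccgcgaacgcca
Sdhd: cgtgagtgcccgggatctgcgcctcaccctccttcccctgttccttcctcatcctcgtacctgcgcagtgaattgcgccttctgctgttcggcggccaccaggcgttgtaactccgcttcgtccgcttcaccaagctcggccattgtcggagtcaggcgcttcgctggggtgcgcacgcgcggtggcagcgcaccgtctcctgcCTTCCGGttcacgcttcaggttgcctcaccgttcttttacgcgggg
Cox6a1: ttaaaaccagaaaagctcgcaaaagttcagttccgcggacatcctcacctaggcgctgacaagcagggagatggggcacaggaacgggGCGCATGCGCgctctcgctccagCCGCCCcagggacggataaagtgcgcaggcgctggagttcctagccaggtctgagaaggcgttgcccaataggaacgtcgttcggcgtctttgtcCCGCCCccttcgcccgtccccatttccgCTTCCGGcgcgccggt

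The Cox7a1 window held none of the 4 motifs, and those of Cox6b2 and Ndufa1 held a GC box each, 193 and 225 bases before the start. The Sdhd window held an ETS core 46 bases before the start. Cox6a1 had overlapping NRF1 cores on both strands at 162 and 160 bases, an ETS core at 16 bases and 2 GC boxes. Over the 64 members with a window in RefSeq, the NRF1 core was found in 8 (12.5%), against 2.56% of 27025 genes with a window of the same length. The ETS core was found in 12 members (18.8%), against 7.83% of genes. The receptor site was found in 3 members (4.69%), against 4.70%, and the GC box in 24 (37.5%), against 35.4%. These are letter matches and not measured binding.

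Compared with MEFs, no member passed 1.5-fold on the higher side in iAs and 8 (10.0%) passed it on the lower side, where 8.84% of all named genes were higher and 10.0% lower. The share of members past the threshold on the lower side was thus that of all genes. By sign alone, 55 of 80 members (68.8%) were below 0, 16 above and 9 equal, where 37.0% of all genes were below 0. Ties were more frequent among all genes, of which 8200 were below 0, 7355 above and 6625 equal. The median member differed by -0.13 and the median gene by 0.00. With equal values left out, these medians were -0.17 and -0.02. In pAs, 4 members (5.0%) were higher than in MEFs and 3 (3.75%) lower, against 12% and 11.0% of all genes, and 27 members (33.8%) were below 0, against 39.9%. Only 1 of those 7 members, Sdha, is a structural subunit.

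Between iAs and pAs, 2 members (2.5%) had the higher level in iAs by 1.5-fold or more and 15 (18.8%) the lower one, against 8.67% and 11.1% of all genes. Below 0 were 60 members (75.0%), against 35.7% of genes, and the median member differed by -0.23. Of the members 9 were above 0 and 11 equal, and of the genes 7925 were below 0, 8444 above and 5811 equal. With equal values left out, the medians were -0.26 for members and 0.01 for genes. Since 70 of the 80 members were at or above the array median on all 3 arrays, the 14476 genes at or above the median on at least 1 array are a closer background. Of those genes, 16.4% were lower and 47.1% below 0 in iAs against pAs, and 14.8% were lower and 46.9% below 0 in iAs against MEFs. Beside these, the members' shares at 1.5-fold were near or under the background, and their shares below 0 were over it. The 3 comparisons share arrays, so they are not separate observations.

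**Figure D1:**
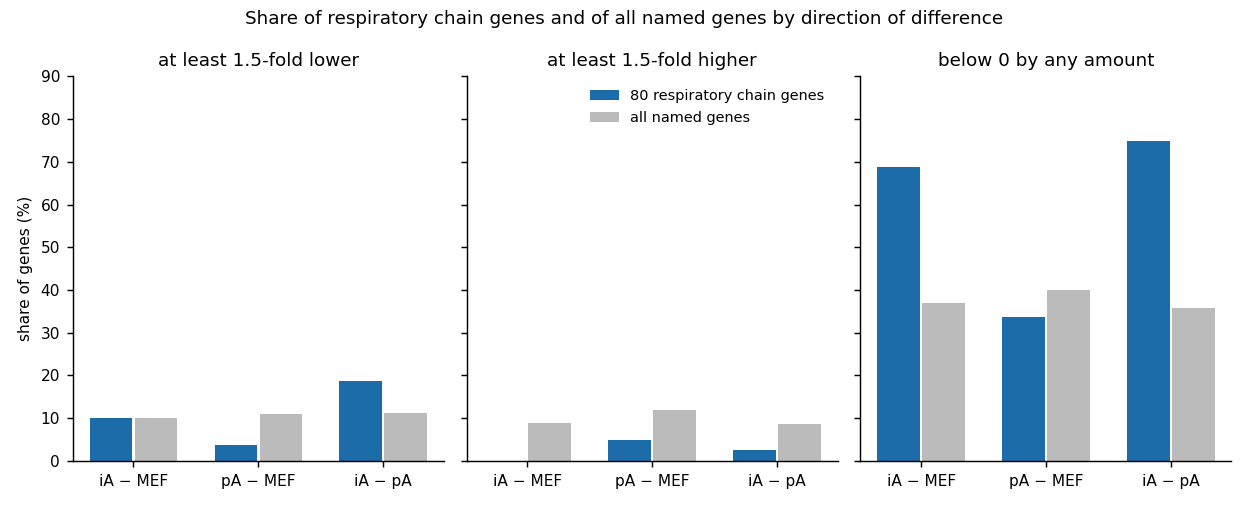
Share (%) of the 80 respiratory chain genes (blue) and of all 22180 named genes (grey) that were lower by 1.5-fold or more, higher by 1.5-fold or more, or below 0 by any amount in each comparison of 2 arrays. The blue bars stand above the grey ones for differences below 0 in iA − MEF (68.8% against 37.0%) and iA − pA (75.0% against 35.7%), and at 10.0% for both in the lower calls of iA − MEF. Equal values count as not below 0, and in iA − MEF they made up 6625 of the 22180 genes and 9 of the 80.

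By rank, iAs had the lowest of the 3 levels in 50 members, MEFs in 12 and pAs in 7, with a tie in the other 11. The level in iAs was below both other arrays for 62.5% of members, for 21.3% of all named genes and for 28.5% of the genes at or above the median on an array. The highest level was found in pAs for 36 members, in MEFs for 24 and in iAs for 5. At 1.5-fold or more, 6 members were below both other arrays in iAs: Ndufa1 of complex I, Cox4i1 and Cox5a of complex IV, Atp5a1 and Atp5mpl of complex V, and the dim pseudogene Uqcrh-ps1. Of the 80 members, 61 lay within 1.5-fold in every comparison and 19 did not. For these counts and for the 6 above, the share over all named genes was not computed. Several of the 19 were near the threshold: with arrays centred on the brighter probe sets, Atp5a1, Cox4i1, Cox5a and Ndufc2 no longer passed it in iAs against pAs, and Atp5a1 with a further quantile normalization and Ndufa1 with an offset of 32 no longer passed it in iAs against MEFs.

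**Figure D2:**
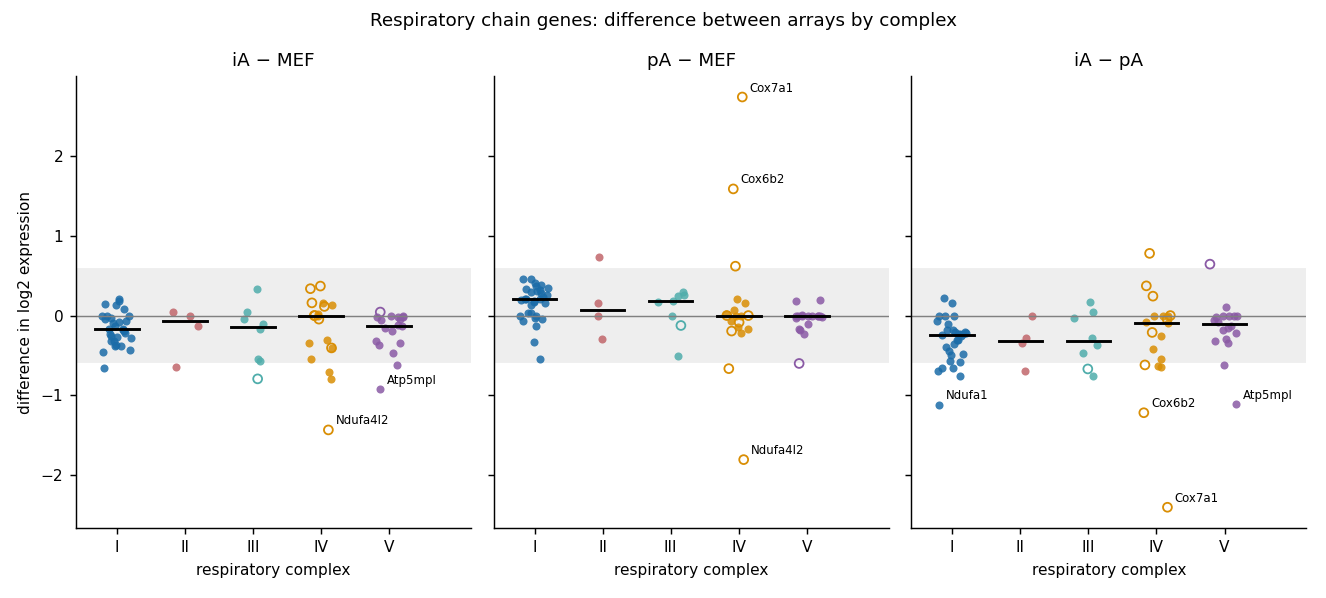
Difference in log2 expression for each of the 80 genes by respiratory complex, in iA − MEF, pA − MEF and iA − pA. Filled points are structural subunits, open circles isoforms, relatives and pseudogenes, black lines the median of a complex, and the grey band differences within 1.5-fold. Most genes lie inside the band, with complex I centred at -0.17, 0.20 and -0.25, and the far points are complex IV isoforms apart from Ndufa1 and Atp5mpl.

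Most complex I genes lay below MEFs in iAs and above MEFs in pAs. Of its 31 genes, 23 were below MEFs in iAs, 23 were above MEFs in pAs, and 26 were below pAs in iAs, with medians of -0.17, 0.20 and -0.25. At 1.5-fold, 1 (3.23%) was lower in iAs than in MEFs, under the 10.0% of all named genes. None passed between pAs and MEFs, and 5 (16.1%) were lower in iAs than in pAs, near the 16.4% of genes at or above the median on an array. The 6 core subunits measured (Ndufs1, Ndufs3, Ndufs7, Ndufs8, Ndufv1, Ndufv2), which carry the flavin and iron-sulfur clusters and their scaffold, were all below pAs in iAs, with differences of -0.06 to -0.76 and a median of -0.39. For the 25 accessory subunits that median was -0.24, and 20 were below 0.

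Ndufv1, the subunit that binds NADH and flavin, was at 10.46 in iAs, 11.21 in pAs and 10.92 in MEFs. The iA level was thus 1.69-fold below that of pAs and within 1.5-fold of MEFs. Ndufa1, a small membrane subunit needed for assembly of the complex, was at 7.54 in iAs, 8.65 in pAs and 8.20 in MEFs. It was 1.58-fold below MEFs in iAs and 2.17-fold below pAs, the largest difference of complex I in both comparisons. Its promoter, printed above, has a GC box as its one match.

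The accessory subunits Ndufa2, Ndufa3 and Ndufc2 had the same order of arrays, lowest in iAs and highest in pAs. Ndufa2, of the arm that takes up NADH, was at 9.44 in iAs, 10.11 in pAs and 9.82 in MEFs, which is 1.58-fold below pAs in iAs. Ndufa3, of the membrane arm, was at 11.22, 11.92 and 11.59 in that order, or 1.63-fold below pAs in iAs. Ndufc2, likewise of the membrane arm, was at 12.10, 12.75 and 12.38, or 1.57-fold lower. All of these lay within 1.5-fold of MEFs in either astrocyte preparation.

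Against this order, Ndufa8 was highest in MEFs, at 9.48 in iAs, 9.25 in pAs and 9.80 in MEFs, and Ndufb8 was the only other complex I gene above pAs in iAs. Both probe sets of Ndufa8 had the lower level in pAs against MEFs, at -0.74 and -0.35. Ndufb11 had the highest difference of complex I in iAs against MEFs, at 0.21, with 7.35 in iAs and pAs and 7.14 in MEFs. Ndufa5 and Ndufs4 had the same value on all 3 arrays.

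In complex II, which oxidizes succinate in both the TCA cycle and the respiratory chain, the 4 genes had 4 different patterns. Sdha, the flavoprotein that holds the active site, was at 11.27 in iAs, 11.97 in pAs and 11.23 in MEFs. It was 1.67-fold above MEFs in pAs and 1.62-fold below pAs in iAs, and the levels of iAs and MEFs differed by 0.04. Sdhb, the iron-sulfur subunit, was at 9.34 on every array. The membrane anchors Sdhc and Sdhd bind ubiquinone and differed from each other. Sdhc was at 10.68 in iAs, 10.96 in pAs and 10.81 in MEFs, within 1.5-fold throughout. Sdhd was at 10.00 in iAs, 10.34 in pAs and 10.64 in MEFs, which is 1.56-fold below MEFs in iAs.

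Complex III differed between arrays mainly in Uqcrc2, one of the core proteins that face the matrix. Its level was 11.34 in iAs, 12.09 in pAs and 11.91 in MEFs, 1.69-fold below pAs in iAs and 1.48-fold below MEFs. The partner core protein Uqcrc1 had the same order with smaller gaps, at 11.77, 12.23 and 11.94. Uqcrq, a small subunit next to cytochrome b, was highest in MEFs, at 8.19 in iAs, 8.22 in pAs and 8.73 in MEFs. Uqcr11, another small subunit, had the opposite order, at 9.22 in iAs, 9.05 in pAs and 8.88 in MEFs. Over the 7 structural genes of complex III the medians were -0.11 for iAs against MEFs, 0.18 for pAs against MEFs and -0.28 for iAs against pAs. The pseudogene Uqcrh-ps1 was dim on every array, at 4.51, 5.18 and 5.30.

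**Figure D3:**
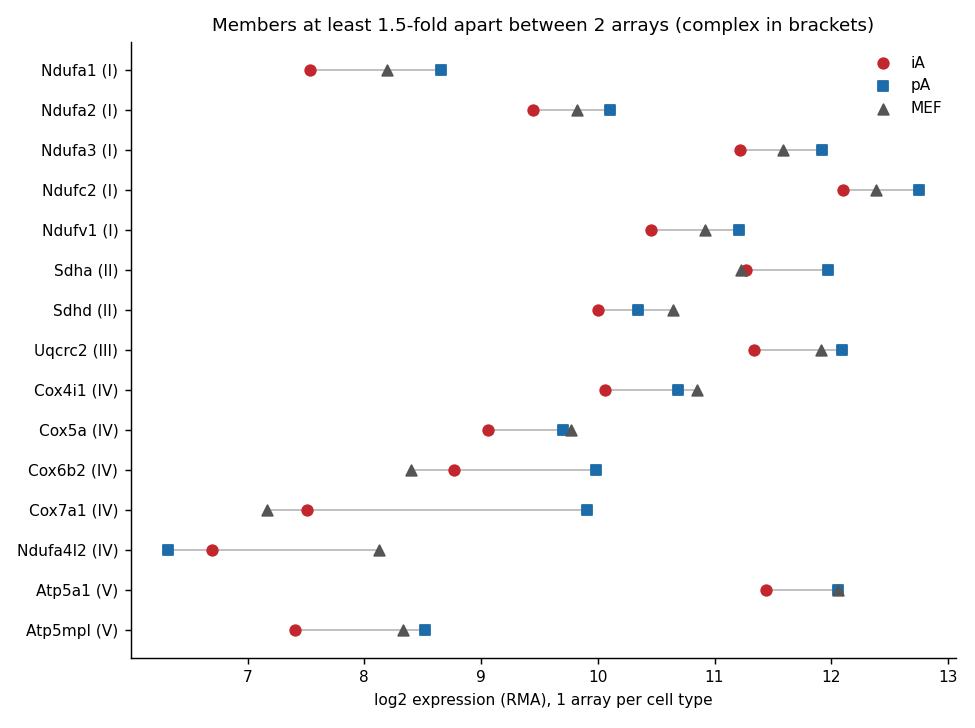
Levels (log2 RMA values) on the 3 arrays of the 15 members that differed by at least 1.5-fold between 2 arrays and reached the array median, with the complex in brackets and 1 point per array, to be read within a gene since probe sets of different genes share no scale. The iA point is the lowest in 11 of the 15, and Cox7a1, Cox6b2 and Sdha are set apart by pAs and Ndufa4l2 by MEFs.

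The widest differences in the chain were those of complex IV isoforms. Cox7a1, the heart and muscle form of subunit 7a, was at 7.51 in iAs, 9.91 in pAs and 7.17 in MEFs. It was 6.69-fold above MEFs in pAs and 5.30-fold below pAs in iAs, while iAs and MEFs were 1.26-fold apart. The widely expressed form Cox7a2 was at 11.08, 11.17 and 11.39, and the relative Cox7a2l, a factor of supercomplex assembly, was at 8.07 on every array. Among 7 muscle markers, each astrocyte array had 5 with a lower level than the MEF array and none with a higher one. Myh3, counted among the lower ones, was dim on every array, as was the muscle creatine kinase Ckm at 6.48 to 6.51. Acta1 and Myog, also counted as lower, were still above the array median in pAs, at 7.33 and 7.35. Whether muscle cells had a part in the Cox7a1 level was not tested.

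Cox6b2, the testis form of subunit 6b, had the same order of pAs above the others. It was found at 8.77 in iAs, at 9.99 in pAs and at 8.40 in MEFs, 3.01-fold above MEFs in pAs and 2.33-fold below pAs in iAs. Its ubiquitous partner Cox6b1 had a single value of 11.16 on the 3 arrays. Ndufa4l2, a relative of Ndufa4 known as a target of hypoxia-inducible factor, was instead highest in MEFs. It was at 6.69 in iAs, 6.32 in pAs and 8.13 in MEFs, 2.70-fold below MEFs in iAs. In pAs it was 3.50-fold below MEFs on the dim pA level. With the array median in place of that level, which is no known floor, the difference was 2.95-fold. Ndufa4 itself was at 9.92, 10.46 and 10.47, within 1.5-fold and lowest in iAs.

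The other isoforms showed little. Cox4i2, the lung form of subunit 4 that is induced by low oxygen, was at 8.58 in iAs and 8.62 in pAs and MEFs. The muscle form Cox6a2 was at 6.47, 6.68 and 6.88 in iAs, pAs and MEFs, next to the array medians. Cox7b2, Cox8b and Cox8c were dim on all arrays, Cox7b2 being at 4.55 in iAs, 5.17 in pAs and 4.55 in MEFs and Cox8b at 6.56, 5.78 and 6.44. The 1.5-fold calls of Cox7b2 and Cox8b and of the pseudogene Atp5c1-ps (4.15, 3.50 and 4.10) therefore rest on levels below the median.

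Among the structural subunits of complex IV, 2 were below both other arrays in iAs by 1.5-fold or more. Cox4i1, the common form of subunit 4, was at 10.06 in iAs, 10.69 in pAs and 10.85 in MEFs, 1.73-fold below MEFs and 1.55-fold below pAs. Cox5a, which lies beside subunit 4 in the complex, was at 9.06, 9.70 and 9.77, or 1.63-fold and 1.56-fold lower. In both genes pAs and MEFs were close, 1.12-fold and 1.05-fold apart. Cox6a1 was at 13.03 in iAs, 13.45 in pAs and 13.37 in MEFs, and Cox8a at 12.57, 12.57 and 12.55. The 10 structural genes had a median of -0.33 for iAs against MEFs and 0.00 for pAs against MEFs, and all 19 genes of complex IV a median of 0.00 in both.

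Cox5b and Cox7b show how far such values depend on the probe set. Cox5b had a probe set that was dim at 6.52 on every array, and another at 11.10 in iAs, 11.62 in pAs and 11.92 in MEFs. The brighter one differed by -0.81 in iAs against MEFs, past 1.5-fold, whereas the mean of both, at -0.41, was within it. For Cox7b, whose mean levels were 9.43, 9.52 and 9.31, the dimmer probe set was above MEFs in pAs by 0.52 and the brighter one was at -0.10, so the gene has no settled direction. Over the 9 members with 2 probe sets, the median gap between the differences of a pair was 0.26 for iAs against MEFs, 0.25 for pAs against MEFs and 0.43 for iAs against pAs. These gaps are larger than the size of the members' median difference in each comparison.

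In complex V, 15 of 17 structural genes were below MEFs in iAs and none above, with a median of -0.13. In pAs, 8 were below MEFs, 3 above and 6 equal, with a median of 0.00. Atp5a1, the alpha subunit of the catalytic head, was at 11.44 in iAs, 12.06 in pAs and 12.05 in MEFs, 1.53-fold below MEFs in iAs and 1.54-fold below pAs. Its partner in the head, the beta subunit Atp5b, was at 13.51 on every array, near the top of the scale. Atp5mpl, a small membrane protein of the synthase, had the largest difference of the complex. It was at 7.41 in iAs, 8.52 in pAs and 8.33 in MEFs, 1.90-fold below MEFs in iAs and 2.16-fold below pAs.

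The c subunit of the rotor comes from 3 genes, and Atp5g2 was the one that differed most. Both of its probe sets had the lower level in iAs against MEFs, at -0.46 and -0.47, the means being 11.60 in iAs, 11.90 in pAs and 12.07 in MEFs. Atp5g3 was at 9.34, 9.43 and 9.54, and Atp5g1 at 6.83 (1 value on all arrays). Of the remaining subunits, Atp5e, the epsilon subunit of the stalk, was at 8.53, 8.71 and 8.89, from probe sets at 0.00 and -0.73 for iAs against MEFs. Atp5h, a subunit of the peripheral stalk, had the highest difference of pAs from MEFs in the complex, at 8.99, 9.21 and 9.02. Its probe sets ran in opposite directions for iAs against MEFs, at 0.40 and -0.45.

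Equal values limit the counts. The 3 arrays held the same value for 7 members (8.75%: Atp5b, Atp5g1, Cox6b1, Cox7a2l, Ndufa5, Ndufs4 and Sdhb) and for 20.3% of all named genes, and 19 members were equal on at least 1 pair of arrays. Of the 22180 named genes, 9489 were equal on at least 1 pair. Such ties lower the shares of all genes below 0, or below both other arrays, more than those of members. How the equal values arose was not tested. Without the 7, the medians of the members were -0.17 for iAs against MEFs, 0.04 for pAs against MEFs and -0.25 for iAs against pAs. Ndufs6, Ndufb2, Ndufb4, Uqcr10 and Cox6c have only probe sets shared with another symbol. The pair of probe sets shared by Ndufs6, a subunit of complex I, and its copy Ndufs6b was called lower in iAs against MEFs, at -0.78 and -0.87. Atp5if1 was not analysed here.

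In iAs, the subunits encoded by mitochondrial DNA had the opposite sign to most nuclear ones. All 10 that were measured (ND1 to ND6 with ND4L, CYTB, COX1 and COX3) were above MEFs and pAs in iAs, with medians of 0.24 and 0.11, and none reached 1.5-fold. Of the 22180 named genes, 7355 and 8444 were above 0 in these comparisons. Both medians were smaller than the median gap between paired probe sets of a member, 0.26 and 0.43. ND2, of complex I, was at 13.78 in iAs, 13.61 in pAs and 13.32 in MEFs. ND6, which is read from the opposite strand of the mitochondrial genome to the others, was at 9.80, 9.66 and 9.66. The other 9 had levels of 13.26 to 14.17, near the top of the scale.

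The assembly factors build the complexes and are not part of them. Of 44 measured, iAs against MEFs had none higher and 3 lower, pAs against MEFs 5 higher and none lower, and iAs against pAs 10 lower, with medians of -0.05, 0.07 and -0.14. These were 6.82% lower in the first (all named genes 10.0%), 11.4% higher in the second (12%) and 22.7% lower in the third (11.1%, and 16.4% of genes at or above the median on an array). Ndufaf1, needed for the membrane arm of complex I, was at 8.33 in iAs, 10.10 in pAs and 8.41 in MEFs, 3.23-fold above MEFs in pAs. Coa6, which serves copper delivery to complex IV, was at 8.37, 9.56 and 8.32, or 2.36-fold higher in pAs. Cox14, an early assembly factor of complex IV, was at 8.43, 9.05 and 8.26, and Ndufaf3, of complex I, at 9.55, 10.24 and 9.48, 1.72-fold and 1.69-fold above MEFs in pAs. The members lower in iAs than in MEFs were Coa7, the RNA-binding protein Lrpprc and Foxred1, at -0.68, -0.66 and -0.59.

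Other electron carriers and coenzyme Q genes stood above MEFs in pAs, with a median of 0.41 over 21 genes, 5 (23.8%) higher and 1 lower. Over all named genes 12% were higher, and over those at or above the median on an array 17.6%. In iAs against MEFs the median was -0.03, with 2 higher and 2 lower (9.52% each, against 8.84% and 10.0% of all named genes). In iAs against pAs 8 (38.1%) were lower, against 11.1% and 16.4% of the same 2 backgrounds. Gpd2, which feeds electrons from glycerol 3-phosphate into the chain, was at 9.79 in iAs, 10.55 in pAs and 9.00 in MEFs, 1.74-fold and 2.95-fold above MEFs. Sqor, the sulfide oxidase that also reduces ubiquinone, was at 8.73, 8.59 and 7.28, or 2.74-fold and 2.48-fold above MEFs. Cyc1, the cytochrome c1 of complex III that the choice by symbol leaves out, was at 11.03, 11.46 and 11.26, and Cycs, cytochrome c itself, at 9.89, 9.86 and 9.72. Etfdh, which passes electrons from fatty acid oxidation to ubiquinone, was at 9.79, 10.61 and 9.73, 1.84-fold above MEFs in pAs. Coq3, an enzyme of coenzyme Q synthesis, was at 8.86, 8.78 and 9.50.

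Of 21 regulators of mitochondrial biogenesis, Ppargc1a differed most. This coactivator, PGC-1alpha, is known to drive respiratory genes together with NRF1, GABP and the estrogen-related receptors. It was at 7.12 in iAs, 11.02 in pAs and 7.00 in MEFs, 16.2-fold above MEFs in pAs and 14.9-fold below pAs in iAs. Its relative Pprc1 had the highest level in MEFs, at 8.43, 8.16 and 9.45. Tfam, which packs and transcribes mitochondrial DNA, was at 7.54, 8.06 and 8.07, and Tfb1m, which modifies mitochondrial ribosomal RNA, at 8.81, 9.34 and 9.47. The medians of the list were -0.05, 0.00 and -0.15 for iAs against MEFs, pAs against MEFs and iAs against pAs. In iAs against MEFs 1 was higher (4.76%) and 2 lower (9.52%), beside 8.84% and 10.0% of all named genes. In pAs against MEFs 2 were higher (9.52%) and 1 lower (4.76%), beside 12% and 11.0%. In iAs against pAs 1 was lower (4.76%), beside 11.1%.

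**Figure D4:**
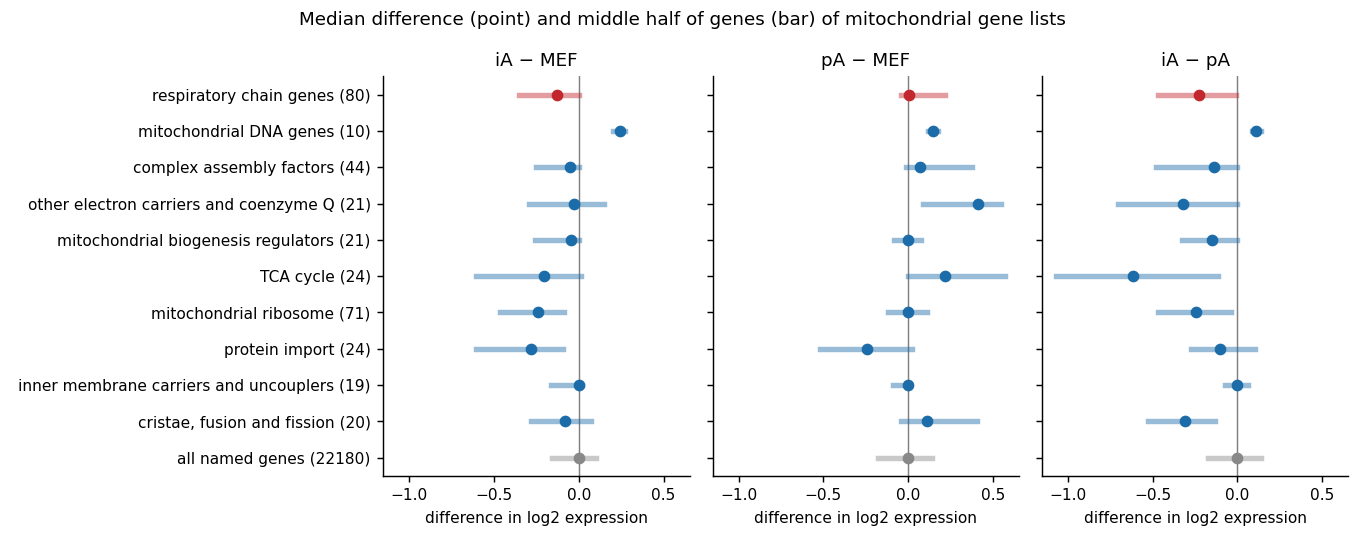
Median difference in log2 expression (point) and interquartile range of the genes (bar) for the respiratory chain genes (red), related mitochondrial gene lists (blue) and all named genes (grey) in iA − MEF, pA − MEF and iA − pA, with the number of genes in brackets. In iA − pA the chain (-0.23), the mitochondrial ribosome (-0.24) and the TCA cycle (-0.62) lie below 0, and the mitochondrial DNA genes (0.11) above.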

How the data were processed

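Each cell type was measured on 1 array. The authors deposited log2 expression values per probe set, made by RMA in Partek (the version and the genome build are not given in the sources used here, and the labels also name MAS5). RMA adjusts background, equalizes the distributions of the arrays and summarizes probes, so values are relative to the other arrays. Of 41345 probe sets, 23521 carry 1 gene symbol on the platform, and their mean log2 value was taken per gene. Differences between arrays were computed with Python 3.11.15, numpy 2.4.6 and pandas 2.3.3, and the computation was checked on made-up arrays. No test was possible, and precision is limited by the number of arrays. Shares of members at 1.5-fold are given beside the shares over all named genes, and in part beside those over genes at or above the median on an array. Members and lists were chosen with earlier results of these data known. Members named are those at least 1.5-fold apart with the higher level at or above the array median, the extremes of each complex, isoform pairs and the Sdh genes, and of each related list up to 4 with the largest differences from MEFs. Cyc1, Cycs, Coa7, Lrpprc, Foxred1, Suclg2, Ndufa5, Ndufs4, Ndufb8, Cox5b, Atp5b, Atp5g2, Atp5g3, Uqcrh-ps1, Atp5c1-ps, ND6 and the marker genes singled out were named after their values were seen. The same holds for Slc25a12. As alternatives, the deposited log2 values were quantile-normalized again, centred on the brighter probe sets, or offset by 32 on the linear scale, and results were recomputed with the brightest probe set per gene, with probe sets in place of genes, with thresholds of 1.25-fold and 2-fold, and with lists without dim genes, without genes outside the structural subunits and, added after seeing the values, without genes equal on all arrays. Promoters come from RefSeq (GRCm38.p6).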

Additional observations from a re-analysis of the deposited data

Results flagged for a closer look

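Suclg2, the GTP-forming subunit of succinyl-CoA ligase, drew attention because it went opposite ways in the astrocyte preparations. It was at 7.36 in iAs, 8.72 in pAs and 8.05 in MEFs, a difference from MEFs of -0.69 in iAs and 0.66 in pAs. With 1 array each, the difference between the preparations was not tested.

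A probe set outside the comparisons, because it is assigned to both Ndufs1 and the transcript Ino80dos, was higher in pAs than in MEFs by 1.80. Its levels were 7.36 in iAs, 7.91 in pAs and 6.12 in MEFs. The probe set assigned to Ndufs1 alone was at 9.22, 9.71 and 9.48, within 1.5-fold. Which of the transcripts the shared probe set reads was not tested.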

How the results depend on the processing

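Of 204 values of 24 counts and medians, 183 stayed within 0.1 for medians or 1.5 times for counts. The limit of 0.1 is near the size of the members' median in iAs against MEFs, -0.13. With quantile normalization that median was -0.14, while the median of all named genes moved from 0.00 to -0.07. In iAs against pAs, centring moved the members' median from -0.23 to -0.155 and that of all named genes from 0.00 to 0.07. The median of the members in pAs against MEFs, at 0.00, was -0.06 with centring, and the complex IV median in iAs against MEFs, also 0.00, was -0.03 with quantile normalization and 0.01 with centring. At the looser threshold, iAs against MEFs had 3 members higher and 22 lower, pAs against MEFs 11 and 6, and iAs against pAs 28 lower. At 2-fold, iAs against MEFs had 1 lower, pAs against MEFs 2 higher and 1 lower, and iAs against pAs 0 higher and 4 lower. Shares of all named genes at the looser threshold and at 2-fold were not computed, so these counts have no background. With the offset of 32 or without dim members, iAs against pAs had 0 higher and pAs against MEFs 1 lower. With structural subunits only, iAs against pAs had 0 higher, and pAs against MEFs had 1 higher and 0 lower. The complex IV median was -0.31 without dim members and -0.33 with structural subunits only for iAs against MEFs, and -0.21 for iAs against pAs without dim members or without members equal on all arrays. Of 28 calls of named members, quantile normalization lost 2 (Atp5a1 in iAs against MEFs, Cox7b2), centring 6 (among them Atp5a1, Cox4i1, Cox5a and Ndufc2 in iAs against pAs) and the offset 5 (among them Ndufa1 in iAs against MEFs), and none changed direction. Centring added Ndufa8 in pAs against MEFs, and the brightest probe set added Atp5e in iAs against MEFs, at -0.73. With the brightest probe set Cox5b, not among the members checked one by one, was also lower there, at -0.81. The lower calls of all members in iAs against MEFs thus rose from 8 to 10. The direction of Cox7b depended on the probe set, at 0.35 in iAs against pAs with the brighter one. No paired analysis was possible because each cell type has 1 array, and for the same reason no array could be left out. Dim genes have no detection calls, so their differences have no known floor.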

Other observations

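Of 24 TCA cycle genes and regulators of pyruvate entry, iAs against MEFs had 4 higher and 6 lower, pAs against MEFs 6 and 1, and iAs against pAs 1 and 13, with medians of -0.20, 0.22 and -0.62. In iAs against pAs the 13 lower were 54.2% of the list. That share was 11.1% over all named genes and 16.4% over those at or above the median on an array. The 6 lower in iAs against MEFs were 25%, against 10.0% and 14.8%. The 4 higher there were 16.7%, against 8.84% and 12.6%, and the 6 higher in pAs against MEFs 25%, against 12% and 17.6%. Idh2, the mitochondrial NADP-dependent isocitrate dehydrogenase, was at 9.00 in iAs, 11.79 in pAs and 11.53 in MEFs, 5.78-fold below MEFs in iAs and 6.92-fold below pAs. The pyruvate dehydrogenase kinases, which switch off pyruvate entry into the cycle, ran in different directions. Pdk4 was at 12.15, 11.20 and 8.26, or 14.8-fold and 7.64-fold above MEFs in iAs and pAs. Pdk2 was at 9.88, 11.33 and 9.12, and Pdk3 at 8.40, 10.07 and 10.67.

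Of 71 mitochondrial ribosomal proteins, 61 were below 0 in iAs against MEFs and 58 in iAs against pAs, with a median of -0.24 in both and 0.00 in pAs against MEFs. At 1.5-fold, 15 (21.1%) were lower in iAs than in MEFs and 10 (14.1%) lower than in pAs, with none higher. Over genes at or above the median on an array, 14.8% and 16.4% were lower in these comparisons, so the second share was under that background. Mrpl11 was at 7.90 in iAs, 8.88 in pAs and 8.90 in MEFs, and Mrps27 at 7.53, 8.48 and 8.51. Mrpl54 was instead highest in MEFs, at 9.06, 8.86 and 10.07. Protein import genes (24) had medians of -0.28 in iAs and -0.24 in pAs against MEFs, with 6 and 5 lower and none higher. The 6 and 5 were 25% and 20.8% of the list, against 10.0% and 11.0% of all named genes. Of genes at or above the median on an array, 14.8% and 16.1% were lower. Timm17b, of the inner membrane translocase, was at 8.97 in iAs, 9.19 in pAs and 10.10 in MEFs, and the chaperones Hspd1 and Hspa9 were also highest in MEFs. Hspd1 was at 10.96, 10.67 and 11.69, and Hspa9 at 11.35, 11.63 and 12.26.

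Genes of cristae, fusion and fission (20) had a median of -0.31 in iAs against pAs, with 5 (25%) lower and none higher. Of all named genes 11.1% were lower, and of those at or above the median on an array 16.4%. The pA array against MEFs had 4 (20%) higher and 1 (5%) lower, beside 12% and 11.0% of all named genes. The iA array against MEFs had 2 (10%) lower, beside 10.0%. The prohibitin Phb2 was at 11.03 in iAs, 11.43 in pAs and 12.17 in MEFs. Mief2, a receptor of the fission machinery, was at 7.78, 8.78 and 7.79, and the fusion protein Mfn1 at 9.65, 10.45 and 9.58. Inner membrane carriers and uncouplers (19) had medians of 0.00 in all comparisons. At 1.5-fold, 2 were higher and 1 lower than in MEFs in iAs and likewise in pAs. The aspartate-glutamate carrier Slc25a13 was at 6.65, 7.68 and 8.29, and Slc25a27, an uncoupling protein of brain, at 7.69, 8.06 and 7.25.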
